A study of Homo sapiens with 6 samples.

Results

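The mitosis and G2/M genes are 40 transcripts that cells make mostly in late S phase, G2 and mitosis: cyclins and their kinase, spindle checkpoint proteins, kinetochore and spindle proteins, and the motors of chromosome movement and cytokinesis. They were taken by symbol, and all 40 were among the 17187 gene symbols of the deposited table. RNA came from HT-1080, an established human fibrosarcoma cell line labelled as wild type, and was sequenced as total RNA. The 3 IFNg libraries came from cells given recombinant interferon gamma at 10 ng/ml for 8 h, and the 3 control libraries from cells given PBS. Whether the 3 libraries of a group stem from separate cultures is not in the labels, so p-values measure only the spread between these libraries, which may be technical.

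Between 59556948 (IFNg 3) and 83501954 (control 2) reads were assigned to genes in a library. Values are normalised read counts, which are reads divided by 1 size factor per library and not by gene length, so a value is compared here only between libraries of the same gene. Marker genes are given only to show which had many or few reads. Of 5 mesenchymal markers, 4 had many reads in every library, namely VIM (314888 to 406141), CD44, LGALS1 and TIMP1 (6134 to 6901). S100A4 had few, between 19.5 and 83.5. The endothelial markers VWF and PECAM1 reached at most 21.4 and 39.0, and the leukocyte marker PTPRC at most 44.6. IRF1, a direct target of the interferon gamma pathway, had 26296, 28118 and 30651 in the IFNg libraries and 395, 482 and 995 in the control libraries. IFNg 3 and control 3, the 2 libraries numbered 3, stood apart from libraries 1 and 2 for nearly all of the 40 genes, so results are given with and without them. The fit without them compares libraries 1 and 2 of each group only. Because they were set apart by values of these same genes, the narrower spread without them is not independent support for a call.

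Entry into mitosis is driven by CDK1 bound to A-type and B-type cyclins, which the CDC25 phosphatases switch on, and exit by the anaphase-promoting complex, which destroys cyclins and securin. Transcription of these genes is held down in G0 and G1 by the DREAM complex and raised in G2 by MuvB with B-MYB and FOXM1. MuvB reaches promoters through a short element called the cell cycle genes homology region, often near CCAAT boxes that bind the factor NF-Y.

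Few of the 40 genes differed after IFNg beyond the spread between libraries of a group, and those that did were lower. Of the 40, 2 passed the test as lower, CDC25B (log2 difference IFNg minus control of -0.59) and KIF2C (-0.56), and 0 passed as higher (limma, Benjamini-Hochberg adjusted p of 0.05 over 15546 genes). The background was 1.05% of all tested genes called lower and 3.27% called higher. The median log2 difference was -0.17 over the 40 genes and -0.01 over all tested genes, and it was below 0 for 32 of the 40 genes, against 52.2% of all genes. Without the libraries numbered 3, which leaves 2 libraries a group, 14 of the 40 genes passed as lower and 0 as higher. Of all genes, 3.85% and 5.67% did. Since the RNA is bulk RNA, a smaller share of cells in G2 or mitosis and fewer transcripts per cell cannot be told apart.

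With limma, 9 of the 40 genes were lower and 0 higher at an unadjusted p under 0.05, where 6.46% and 8.81% of all genes were. edgeR and DESeq2 on the recovered reads each called CDC25B and KIF2C lower and 0 of the 40 higher, with 1.22% and 2.23% of all genes called lower and 3.47% and 4.67% called higher. At an unadjusted p under 0.05, edgeR had 7 of the 40 lower and 0 higher, against 940 and 1260 of the 14187 genes it tested. With control 3 left out, limma called the same 2 of the 40 lower and 0 higher, against 2.93% and 5.45% of all genes.

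The calls among the 40 genes depended on single libraries. With IFNg 3 alone left out, 7 of the 40 passed as lower and 0 as higher, against 0.54% and 2.46% of all genes. These were CDC25B, KIF2C, UBE2C, CCNB1, CENPF, DLGAP5 and PLK1, with limma adjusted p of 0.00226 to 0.0291. With IFNg 1, IFNg 2, control 1 or control 2 left out, CDC25B was the single gene of the 40 called lower, and 0 were called higher. In those 4 fits 0.36%, 0.418%, 0.502% and 0.238% of all genes were called lower and 2.12%, 2.19%, 2.62% and 2.28% higher.

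**Figure D1:**
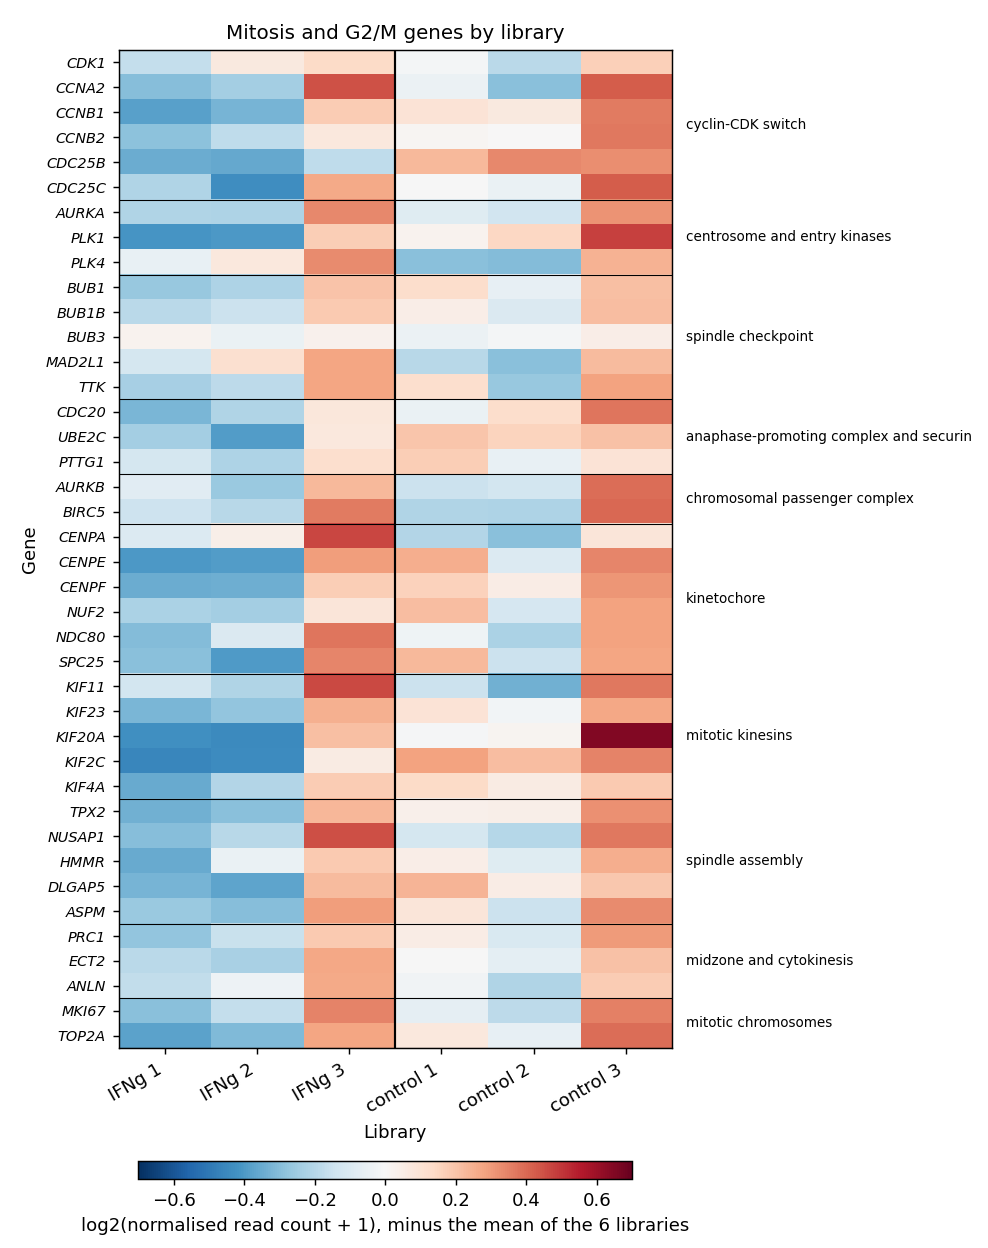
Heat map of the 40 genes (rows, grouped by role) in the 6 libraries (columns, IFNg left of control); colour is log2(normalised read count + 1) minus the mean of the 6 libraries for that gene. IFNg 1 and IFNg 2 are the lowest columns (median deviations of -0.28 and -0.22), and IFNg 3 and control 3 the highest (0.23 and 0.30), with control 1 and control 2 between them (0.03 and -0.09).

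Most of the promoters that could be searched held the letters of the homology region. RefSeq windows from 250 bases before to 50 bases after an annotated start (GRCh38.p14) were found for 34 of the 40 symbols, some with several windows; AURKA, BIRC5, BUB3, TPX2, TTK and UBE2C had no entry. The homology region was searched as TTTGAA or TTCGAA and the NF-Y box as CCAAT, each on both strands, with TTCGAA counted once because it reads the same on both. Other forms of either were not searched, so a window without a match may still hold one. The homology region was in a window of 27 of the 34 genes (79.4%), against 16.2% of the 10660 tested genes with a window and 19.5% of all 27305 genes with one. The NF-Y box was in 28 (82.4%), against 43.2% and 39.7%, and both were in 22 (64.7%), against 6.79% and 7.85%. In 23 of the 27 the homology region lay between 50 bases before the start and the end of the window. Among all 35116 windows, TTTGAA was in 15.2%, TTCGAA in 1.45% and CCAAT in 34.6%.

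The windows below are those of both genes called lower (CDC25B and KIF2C), of PLK1 and CCNB2, which hold the arrangement typical of the set, and of CCNB1 and CDC20, whose products act at mitotic entry and at the start of anaphase. They are written 5′ to 3′ on the gene's strand with each homology region and NF-Y box, in either orientation, in capitals. CDC25B has 4 windows, of which the one with most matches is given (chr20:3796060-3796359, plus strand), and KIF2C has 1 (chr1:44739587-44739886, plus strand). PLK1 lies at chr16:23678639-23678938, CCNB2 at chr15:59104896-59105195, CCNB1 at chr5:69166900-69167199 and CDC20 at chr1:43358731-43359030, all on the plus strand.
CDC25B: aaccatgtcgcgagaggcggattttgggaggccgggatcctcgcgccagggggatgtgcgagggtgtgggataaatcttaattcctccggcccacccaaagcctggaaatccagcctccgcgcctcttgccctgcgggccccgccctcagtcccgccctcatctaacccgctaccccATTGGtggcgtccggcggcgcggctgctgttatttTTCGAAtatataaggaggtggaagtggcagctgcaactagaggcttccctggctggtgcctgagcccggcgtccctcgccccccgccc
KIF2C: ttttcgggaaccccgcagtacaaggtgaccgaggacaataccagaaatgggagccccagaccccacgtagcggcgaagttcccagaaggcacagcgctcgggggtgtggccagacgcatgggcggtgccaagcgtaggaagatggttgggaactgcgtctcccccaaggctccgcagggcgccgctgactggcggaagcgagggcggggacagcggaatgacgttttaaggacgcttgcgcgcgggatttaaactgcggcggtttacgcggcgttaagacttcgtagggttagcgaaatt
PLK1: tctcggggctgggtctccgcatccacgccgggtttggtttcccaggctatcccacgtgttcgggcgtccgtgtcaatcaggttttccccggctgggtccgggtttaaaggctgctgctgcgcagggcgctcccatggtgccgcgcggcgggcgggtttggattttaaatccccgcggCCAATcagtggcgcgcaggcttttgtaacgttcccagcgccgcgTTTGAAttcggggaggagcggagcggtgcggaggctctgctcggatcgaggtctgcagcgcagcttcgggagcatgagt
CCNB2: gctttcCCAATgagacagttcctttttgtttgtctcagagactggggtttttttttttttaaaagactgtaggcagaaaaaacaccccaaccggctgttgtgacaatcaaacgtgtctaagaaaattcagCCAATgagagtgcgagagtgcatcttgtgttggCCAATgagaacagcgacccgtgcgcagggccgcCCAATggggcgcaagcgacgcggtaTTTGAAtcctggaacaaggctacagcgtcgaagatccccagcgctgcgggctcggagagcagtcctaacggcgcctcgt
CCNB1: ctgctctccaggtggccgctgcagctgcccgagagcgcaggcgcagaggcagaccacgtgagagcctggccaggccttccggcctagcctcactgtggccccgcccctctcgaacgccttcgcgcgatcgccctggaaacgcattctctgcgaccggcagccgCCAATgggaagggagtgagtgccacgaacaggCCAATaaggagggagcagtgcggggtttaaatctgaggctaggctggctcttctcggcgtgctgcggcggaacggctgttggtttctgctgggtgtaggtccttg
CDC20: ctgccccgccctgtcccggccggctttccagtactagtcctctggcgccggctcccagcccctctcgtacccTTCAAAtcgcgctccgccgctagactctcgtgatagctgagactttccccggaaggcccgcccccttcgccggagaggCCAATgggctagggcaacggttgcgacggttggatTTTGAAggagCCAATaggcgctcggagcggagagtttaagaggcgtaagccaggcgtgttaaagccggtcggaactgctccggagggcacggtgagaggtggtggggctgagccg

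In PLK1 an NF-Y box begins 73 bases and a homology region 29 bases before the start, and in CCNB2 the nearest box and the homology region begin at -54 and -29. CDC25B has a reversed box at -73 and the TTCGAA form at -38. CCNB1 holds boxes at -87 and -55 and neither searched form of the homology region, and the KIF2C window holds none of the searched words. These letters describe the windows and say nothing of whether a factor was bound.

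**Figure D2:**
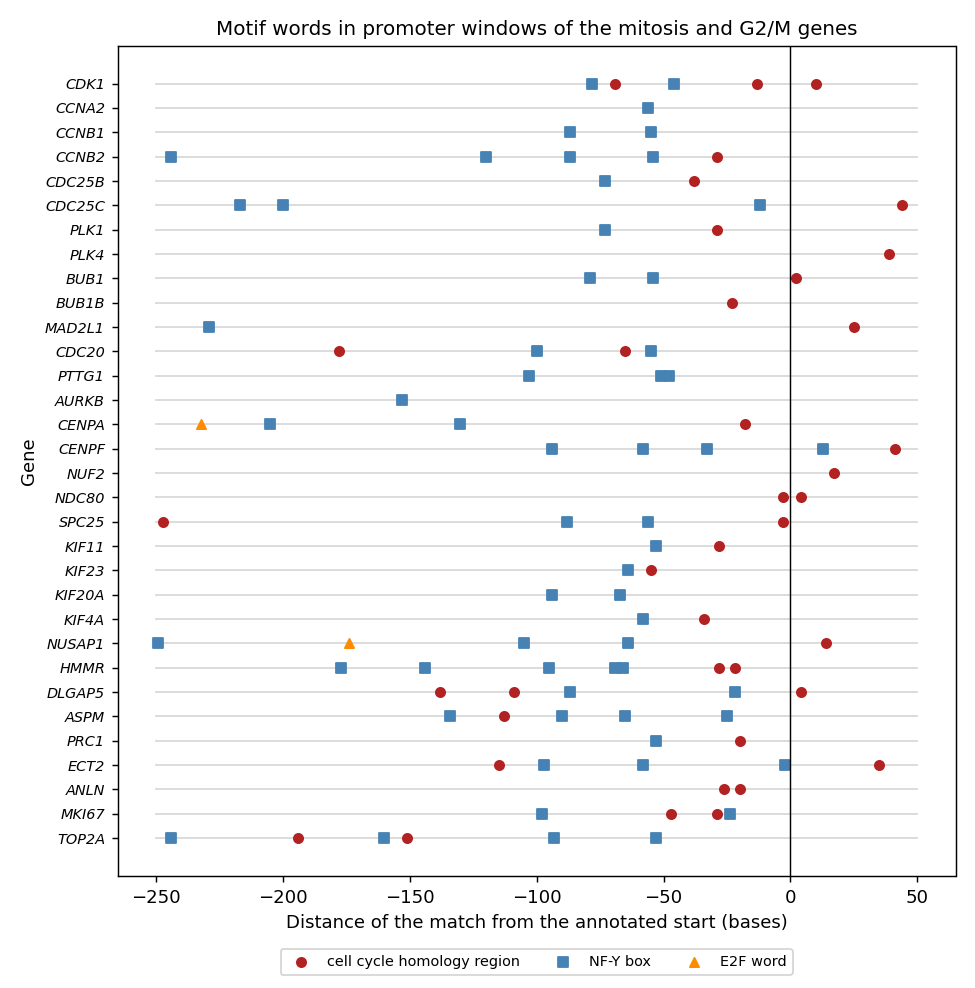
Positions of the homology region (red circles), the NF-Y box (blue squares) and 2 E2F words (orange triangles) in bases from the annotated start (x axis) for the 32 of 34 genes with a match, 1 window per gene, the one with most matches. Homology regions gather near the start, such as -29 in PLK1 and CCNB2, with NF-Y boxes mostly upstream of them, and E2F words are in 2 genes, CENPA and NUSAP1.

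The 27 genes with TTTGAA or TTCGAA in a window had a median log2 difference of -0.18 and the 7 with neither of -0.33. Leaving out the libraries numbered 3, these medians were -0.24 and -0.43, with 8 of the 27 and 4 of the 7 called lower. Of all tested genes, 3.85% were called lower in that fit. No test was made of this difference.

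Among the genes of the cyclin and CDK1 switch, the phosphatase CDC25B fell, while the 5 other genes did not pass with all libraries. CDC25B, which removes inhibitory phosphates from CDK1, had 8415, 8372 and 9488 in IFNg 1, 2 and 3, against 12531, 13516 and 13420 in the controls. All 3 IFNg libraries lay below all 3 controls, and the IFNg mean differed by -33.4% from the control mean (8758 ± 632 and 13156 ± 543, SD, n = 3 each). The log2 difference was -0.59 ± 0.09 (SE; limma adjusted p = 0.00181). Whichever library was left out, it passed (adjusted p between 0.00173 and 0.0216), and it was -0.63 without the libraries numbered 3. It missed the threshold only in a variance model with no trend (adjusted p = 0.0603).

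CDK1, the kinase itself, had 5953, 7008 and 7328 in the IFNg libraries and 6622, 5870 and 7505 in the controls. The groups overlapped fully, and the difference was 0.02 ± 0.12 with a 95% interval of -0.23 to 0.28. CCNB1, the main mitotic cyclin, had 10449, 10864 and 15354 in IFNg against 14533, 14264 and 17487 in control. IFNg 3 lay above control 1 and control 2 there, and the difference of -0.35 ± 0.14 did not pass (limma adjusted p = 0.244). It was -0.43 ± 0.07 without the libraries numbered 3 and passed (adjusted p = 0.00181).

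CCNB2, the second B-type cyclin, differed by -0.26 ± 0.13 and CDC25C, a further CDK1 phosphatase, by -0.25 ± 0.21, and neither passed with all libraries or without those numbered 3 (adjusted p up to 0.649). CCNA2, the A-type cyclin of S and G2 phases, differed by -0.06 ± 0.20, with means of 9238 ± 2819 in IFNg and 9570 ± 2464 in control. Library 3 was the highest of its group in both, at 12487 in IFNg and 12295 in control.

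**Figure D3:**
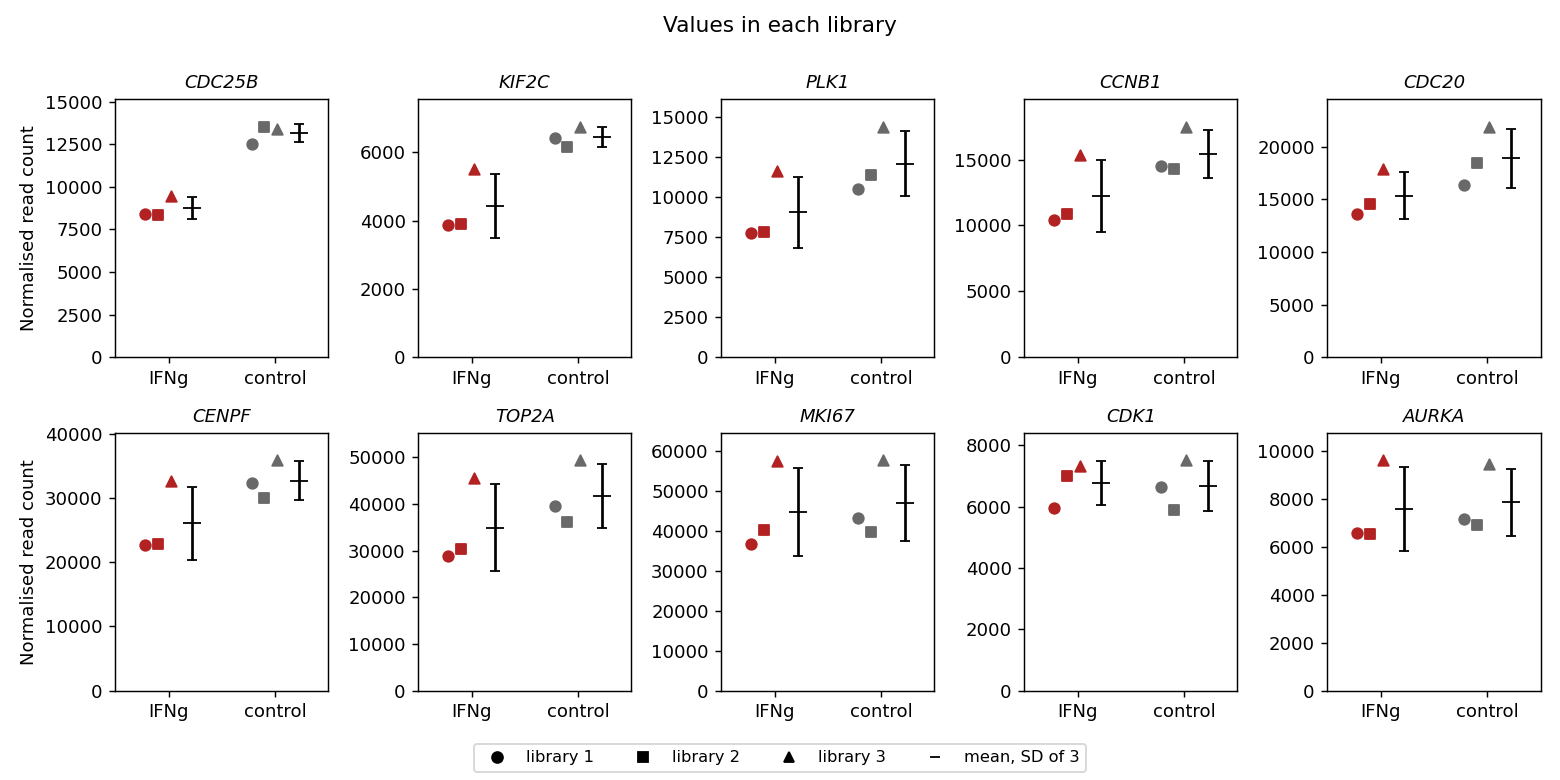
Normalised read count (y axis, linear from 0) of 10 genes in IFNg (red) and control (grey) libraries, with symbols for libraries 1, 2 and 3 and the mean and SD of the 3 beside them. CDC25B and KIF2C separate the groups, PLK1, CCNB1, CDC20, CENPF, TOP2A and AURKA are lower in IFNg 1 and 2 than in any control but not in IFNg 3, by the least in AURKA, and in MKI67 and CDK1 libraries 1 and 2 of the groups overlap too.

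Of the kinases of centrosomes and mitotic entry, PLK1 had the lowest difference. PLK1, which promotes mitotic entry and cytokinesis, had 7757, 7798 and 11621 in IFNg against 10497, 11399 and 14383 in control. Libraries 1 and 2 of IFNg lay well below every control, but IFNg 3 lay among them. The difference was -0.43 ± 0.16 with all libraries (limma adjusted p = 0.203) and -0.49 ± 0.08 without those numbered 3 (adjusted p = 0.00142).

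AURKA, the Aurora kinase of spindle poles, had 6591, 6556 and 9619 in IFNg and 7184, 6934 and 9472 in control, a difference of -0.06 ± 0.16. The high value of each group was library 3. PLK4, which starts centriole duplication, pointed the other way, with means of 3920 ± 542 in IFNg and 3362 ± 768 in control (0.24 ± 0.16, limma adjusted p = 0.54, or 0.0936 without the libraries numbered 3).

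The 5 genes of the spindle checkpoint, which holds anaphase until every chromosome is attached, differed little. Their log2 differences ran from -0.19 (BUB1) to 0.18 (MAD2L1), and none passed in either analysis (adjusted p of 0.553 to 0.984 with all libraries and 0.0672 to 0.936 without those numbered 3). BUB3, which carries BUB1 to kinetochores, had the narrowest interval of the 40 genes, -0.17 to 0.18, with 19030, 18086 and 19119 in IFNg and 18185, 18525 and 19286 in control.

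The 3 genes that act with the anaphase-promoting complex had negative differences. They encode its ubiquitin-conjugating enzyme, its activator and its target securin, and subunits of the complex are in the wider list below. UBE2C, the ubiquitin-conjugating enzyme of the complex, had 5163, 4647 and 6416 in IFNg against 6957, 6771 and 7009 in control. Every IFNg library lay below every control, as for CDC25B and KIF2C only among the 40 genes, where 9.28% of all genes showed this. The UBE2C difference of -0.37 ± 0.12 did not pass with all libraries (limma adjusted p = 0.126) and was -0.49 ± 0.09 without those numbered 3 (adjusted p = 0.00384).

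CDC20, the activator of the complex at metaphase, had 13579, 14598 and 17884 in IFNg and 16392, 18439 and 21903 in control. The difference was -0.30 in both analyses, but its error was 0.13 with all libraries and 0.08 without those numbered 3 (limma adjusted p = 0.273 and 0.0304). PTTG1, securin itself, differed by -0.15 ± 0.11 (adjusted p = 0.596), and its reads may be shared with close copies of the gene.

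Among the 6 kinetochore genes, the 2 large proteins of the outer corona were lower without the libraries numbered 3. CENPF had 22686, 22771 and 32564 in IFNg against 32259, 29893 and 35831 in control, a difference of -0.35 ± 0.13 (limma adjusted p = 0.229). It was -0.45 ± 0.07 without the libraries numbered 3 (adjusted p = 0.000798). CENPE, a kinesin that moves chromosomes to the metaphase plate, had 6636, 6696 and 10737 in IFNg against 10470, 8205 and 11124 in control. For both genes IFNg 1 and 2 were close to each other and below every control, while IFNg 3 was inside the control range. The CENPE difference was -0.33 ± 0.18 (adjusted p = 0.417), or -0.48 ± 0.11 without the libraries numbered 3 (adjusted p = 0.0117).

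The NDC80 complex, which holds microtubule ends, did not pass in either analysis, with differences of -0.25 for NUF2, -0.23 for SPC25 and -0.02 for NDC80. CENPA, the histone H3 variant that marks the centromere, had the highest difference of the 40 genes, 0.28 ± 0.17, with means of 1781 ± 376 in IFNg and 1459 ± 208 in control (limma adjusted p = 0.498). Of the chromosomal passenger complex, which corrects faulty attachments, AURKB differed by -0.08 ± 0.17 and BIRC5, survivin, by 0.02 ± 0.18.

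Of the 5 mitotic kinesins, 1 was called lower with all libraries and 4 without those numbered 3, against 1.05% and 3.85% of all genes. KIF2C, also called MCAK, takes microtubules apart at centromeres. It had 3861, 3897 and 5513 in IFNg against 6428, 6148 and 6743 in control, so that all IFNg libraries lay below all controls. The IFNg mean differed by -31.3% from the control mean, with a log2 difference of -0.56 ± 0.13 (limma adjusted p = 0.0356). Its call was lost without IFNg 1 (adjusted p = 0.179), IFNg 2 (0.172), control 1 (0.122) or control 2 (0.106) and in a variance model with no trend (0.26). Without the libraries numbered 3 the difference was -0.70 ± 0.09 (adjusted p = 0.000233).

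KIF20A, which carries the passenger complex to the central spindle, had 5054, 4999 and 7868 in IFNg against 6765, 6882 and 10655 in control. Library 3 was the highest of its group in both, by 0.65 in IFNg and 0.64 in control on the log2 scale. The difference of -0.44 was the same with and without those libraries, with adjusted p of 0.314 and 0.00495. KIF4A, a chromosome arm motor, and KIF23, of the cytokinesis complex centralspindlin, also passed as lower only without them (-0.37 and -0.33; adjusted p = 0.0308 and 0.0328). KIF11, which pushes spindle poles apart, differed by 0.08 ± 0.19.

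Of the 5 spindle assembly genes, DLGAP5 and TPX2 were lower without the libraries numbered 3. DLGAP5, which stabilises kinetochore fibres, had 4850, 4716 and 7081 in IFNg against 7165, 6295 and 6930 in control. IFNg 3 was within the control range and the other IFNg libraries were under it. The difference was -0.32 ± 0.14 (limma adjusted p = 0.323), or -0.49 ± 0.10 without the libraries numbered 3 (adjusted p = 0.00455). TPX2, the activator of AURKA on the spindle, differed by -0.26 ± 0.14 and -0.35 ± 0.07 in the same analyses (adjusted p = 0.431 and 0.00453). HMMR, ASPM and NUSAP1 did not pass in either, with differences between -0.18 and -0.03.

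PRC1, ECT2 and ANLN, which build the midzone and the cleavage furrow, differed by -0.16, -0.09 and 0.04 and did not pass in either analysis. TOP2A, the topoisomerase that untangles sister chromatids, had 28951, 30295 and 45602 in IFNg against 39522, 36182 and 49375 in control. Its difference was -0.27 ± 0.16 (limma adjusted p = 0.488), or -0.35 ± 0.07 without the libraries numbered 3 (adjusted p = 0.0052). MKI67, the proliferation marker Ki-67, had 36812, 40277 and 57489 in IFNg and 43307, 39808 and 57771 in control. Library 3 exceeded the others of its group by far more than the groups differed (-0.07 ± 0.17, 95% interval -0.44 to 0.29).

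**Figure D4:**
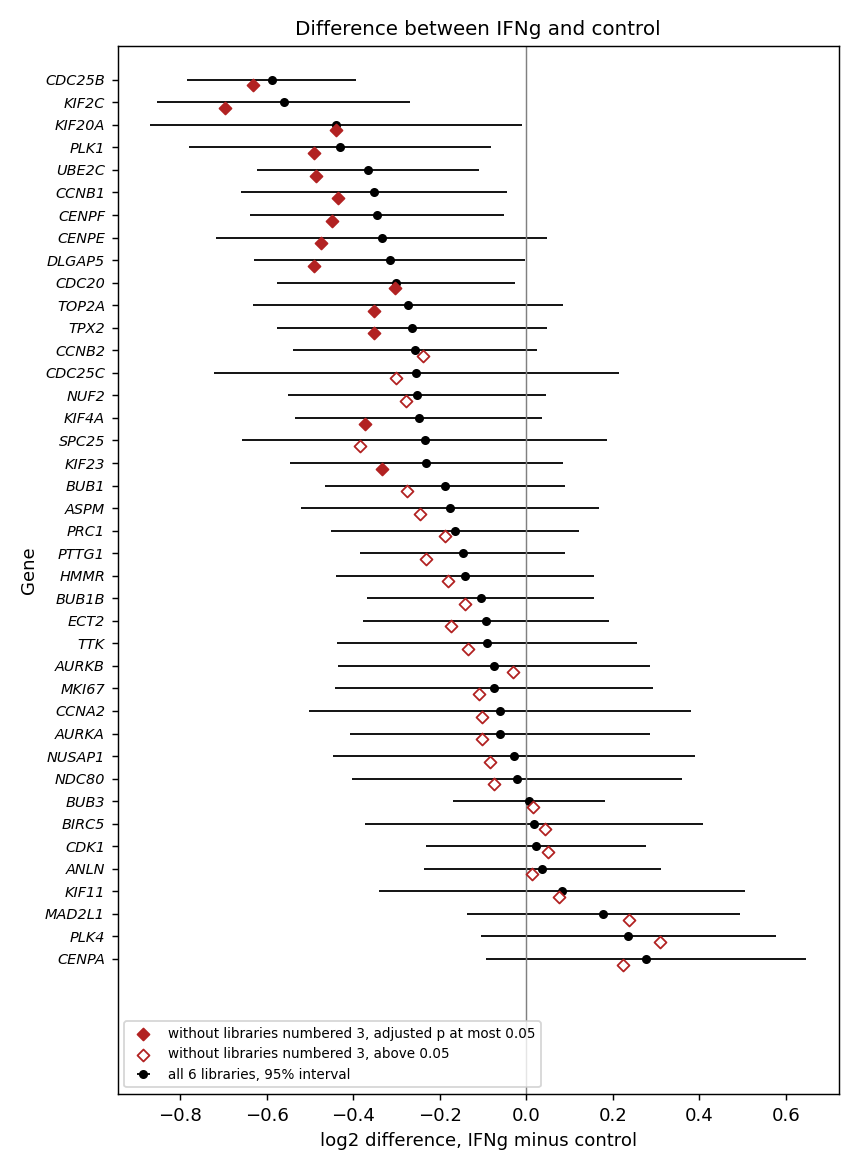
Log2 difference IFNg minus control (x axis) for the 40 genes (y axis, sorted). Black points with bars are the estimate and 95% interval with all 6 libraries, and diamonds the estimate without the libraries numbered 3, filled where the adjusted p is at most 0.05; the 14 filled diamonds are all below 0, from -0.70 (KIF2C) to -0.30 (CDC20).

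The libraries numbered 3 were high for nearly every one of the 40 genes in both groups. IFNg 3 exceeded IFNg 1 and 2 in 40 of 40 genes and control 3 exceeded control 1 and 2 in 37, where 38% and 36.2% of all tested genes did. Both held in 37 genes (92.5%), against a background of 18.2%, and the exceptions were CDC25B, PTTG1 and DLGAP5, where control 3 lay between the other controls. The median log2 distance of library 3 from the mean of libraries 1 and 2 was 0.50 in IFNg and 0.31 in control, and 0.00 and 0.01 over all genes. The distance was larger in IFNg for 33 of the 40 genes.

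The largest distances in IFNg were those of CCNA2 (0.71), NUSAP1 (0.70), CENPE and SPC25 (both 0.69), and in control those of KIF20A (0.64), BIRC5 and KIF11 (both 0.61). BUB3 moved least in IFNg, by 0.04, and UBE2C and PTTG1 least in control, by 0.03. What sets these libraries apart is not in the labels, and its part in the results was not tested. IFNg 3 was also the shallowest library, at 59556948 reads, whereas control 3, at 70092508, lay between control 1 and control 2.

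Among libraries 1 and 2, both IFNg libraries were below both controls in 25 of the 40 genes and above both in 4, PLK4, MAD2L1, BIRC5 and CENPA. The backgrounds were 25% below and 24.8% above. Between IFNg 3 and control 3, 1 library each and so with no test, IFNg was lower in 27 of the 40 genes, against 50.8% of all genes, and the median difference was -0.03. With a term for the libraries numbered 3 in a fit of all 6, 11 of the 40 genes were called lower and 0 higher (backgrounds 3.69% and 6.21%), and all 11 were among the 14 called without those libraries. KIF23, KIF4A and DLGAP5 were the others of the 14.

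**Figure D5:**
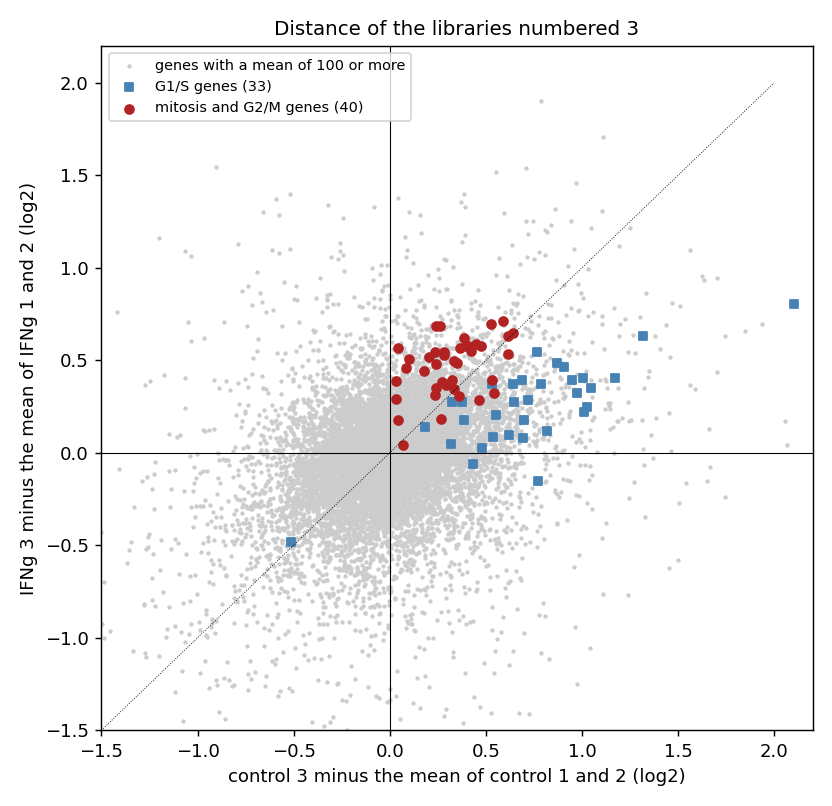
Log2 distance of library 3 from the mean of libraries 1 and 2 within control (x axis) and within IFNg (y axis), for the 40 mitosis and G2/M genes (red), 33 G1/S genes (blue squares) and 11701 genes with a mean of 100 or more (grey; 56 fall outside the axes); the dotted line marks equal distances. The red points are all above 0 on both axes and mostly above the line (medians 0.50 in IFNg and 0.31 in control), whereas the blue ones are mostly under it (medians 0.28 and 0.70).

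Genes of the preceding cell cycle phase had differences above 0 after IFNg, where 32 of the 40 mitosis and G2/M genes were below 0. In 33 G1/S genes, which license and run DNA replication, the log2 difference was above 0 in all 33, with a median of 0.55, and 5 were called higher and 0 lower by limma, where 3.27% and 1.05% of all genes were (22 and 0 at an unadjusted p under 0.05, against 8.81% and 6.46%). edgeR called 1 higher and 0 lower, against 3.47% and 1.22% of all genes. At an unadjusted p under 0.05 it had 20 and 0, against 1260 and 940 of the 14187 genes it tested. The called genes were the E-type cyclin CCNE2 (1.28 ± 0.32), the replication factors MCM10 (0.91 ± 0.22) and CLSPN (0.75 ± 0.16), and the helicase subunits MCM3 (0.60 ± 0.15) and MCM4 (0.52 ± 0.13), with limma adjusted p of 0.0212 to 0.048. Leaving out control 3 kept all 5 calls, and leaving out any of the other 5 libraries ended each of them (adjusted p reaching 0.25). Without the libraries numbered 3, 24 of the 33 were higher and 0 lower, against 5.67% and 3.85% of all genes. IFNg 1 and 2 both exceeded control 1 and 2 in 33 of 33, where 24.8% of all genes showed this. Control 3 was high for the G1/S genes too, by a median of 0.70, more than IFNg 3 (0.28). Between IFNg 3 and control 3, 1 library each and so with no test, IFNg was lower in 6 of the 33. This held for 50.8% of all genes. The median difference between these 2 libraries was 0.22 over the 33 genes.

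CCNE2 had 1327, 1547 and 2221 in IFNg against 502, 502 and 1256 in control, with no overlap. The homology region was in promoter windows of 2 of 27 G1/S genes (7.41%). The E2F words TTTCCCGC or TTTGGCGC, searched on both strands, were in 16 of 27 (59.3%). The NF-Y box was in 18 of 27 (66.7%), against 43.2% of the tested genes with a window, so it was frequent in this list too. Of the mitosis and G2/M genes 2 of 34 (5.88%) held an E2F word, against 4.34% of the tested genes and 2.75% of all genes with a window. TTTCCCGC was in 1.63% and TTTGGCGC in 0.652% of all 35116 windows.

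A wider list of 104 other mitosis genes, such as condensins, further centromere proteins and subunits of the anaphase-promoting complex, was centred on 0 (median 0.01), with 0 called higher and 1 lower by limma, where 3.27% and 1.05% of all genes were (edgeR also 0 and 1). At an unadjusted p under 0.05 limma had 13 higher and 7 lower (12.5% and 6.73%, against 8.81% and 6.46% of all genes), and edgeR 10 and 7. Of the 14187 genes that edgeR tested, 1260 were higher and 940 lower at that threshold. The gene called lower was CIT, citron kinase of cytokinesis, with 7708, 7703 and 8845 in IFNg against 10538, 10870 and 10882 in control (-0.42 ± 0.09, adjusted p = 0.0214). Its call was lost without IFNg 1 (adjusted p = 0.129), IFNg 2 (0.137), control 1 (0.0505) or control 2 (0.108). The differences farthest from 0 were those of PKMYT1, which inhibits CDK1 (0.72 ± 0.31), the kinetochore gene DSN1 (0.68 ± 0.19) and the lamina gene LMNB1 (0.64 ± 0.22), with adjusted p of 0.285, 0.0749 and 0.165. The next farthest, TROAP, lay below 0 (-0.64 ± 0.20, limma adjusted p = 0.119) and is named after its value was seen. Without the libraries numbered 3, 11 of the 104 were higher, PKMYT1, DSN1 and LMNB1 among them, and 7 lower, TROAP among them. Of all genes, 5.67% were higher and 3.85% lower in that fit. The homology region was in a window of 54 of the 88 genes of this list that had one (61.4%), and the NF-Y box in 59 (67%).

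Of 17 transcription regulators of G2/M genes, 0 passed in either direction by limma or edgeR with all libraries, and the median difference was -0.0045. Of all genes, limma called 3.27% higher and 1.05% lower, and edgeR 3.47% and 1.22%. At an unadjusted p under 0.05 limma had 3 of the 17 higher and 2 lower (17.6% and 11.8%, against 8.81% and 6.46% of all genes). By edgeR these counts were 2 and 2, against 1260 and 940 of the 14187 genes it tested. The values farthest from 0 were those of the MuvB subunit LIN52 (0.62 ± 0.24), the pocket protein partner E2F5 (-0.47 ± 0.21) and the NF-Y subunit NFYB (-0.43 ± 0.21), with limma adjusted p of 0.232, 0.32 and 0.372. Without the libraries numbered 3, 2 of the 17 passed as higher and 1 as lower, against 5.67% and 3.85% of all genes. These 3 are named after their values were seen: MYBL2, which encodes B-MYB (0.44, adjusted p = 0.0385), the E2F partner TFDP1 (0.31, 0.0197) and the NF-Y subunit NFYC (-0.39, 0.0338).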

How the data were processed

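The deposited table holds 1 value per gene symbol and library. Its name says RPKM, but the deposited signal consists of reads scaled by 1 size factor in each library: within 0.001 reads, 100% of values above 0 came out as whole reads. Size factors ran from 0.863 to 1.20 and matched those that the median-of-ratios method gives for the same reads, so that 1 read was worth 0.835 to 1.16. Per the submitters' processing notes, FastQC 0.11.3, TopHat2 2.0.13, Cufflinks, Cuffdiff 2.2.1, hg19 and GRCh37 were used; how reads were counted (strand, several matches) and scaled is not given in the sources used here. Per the labels' protocols, ribosomal RNA was removed and stranded total RNA libraries were sequenced as paired ends.

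limma 3.58.1 (R 4.3.3) was run on log2(value + 1) with group as the only term and a trend in the variance, for genes with at least 0.5 in at least 3 libraries (15546 genes, all 40 members among them), 2-sided, with Benjamini-Hochberg adjustment over all of them at 0.05. The sentences that print an adjusted p refer to this fit unless another tool is named. Fold changes are on the log2(value + 1) scale. Alternatives were edgeR 4.0.16 (quasi-likelihood test, TMM) and DESeq2 1.42.0 on the recovered reads, other pseudocounts and filters, no variance trend, TMM rescaling, leaving out libraries, and terms for the replicate number. The fits were tested on simulated data that held no shift shared by many genes of a library. That test therefore says nothing of the libraries numbered 3. Within groups, chi-square divided by its degrees of freedom was 15 to 105 for each pair of libraries, and all 6 were kept as separate samples. The members, gene lists, tests and the rule for named genes (all members; per-library values for those called, the 10 farthest from 0 and 7 textbook genes; in other lists those called or the 3 farthest from 0) were chosen with earlier results of these data known. Older symbols of 6 listed genes were matched through reference tables. Promoter sequences are those of RefSeq on GRCh38.p14, matched by symbol.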

Additional observations from a re-analysis of the deposited data

How the results depend on the processing

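Over the 40 genes, 0 were called higher in every setting, and 2 were called lower with a pseudocount of 0.5 or 5, with no filter or a stricter one, with TMM rescaling and with edgeR and DESeq2. The count was 14 without both libraries numbered 3, 11 with a term for them and 0 with no variance trend, and lay between 1 and 7 without 1 library. The median difference lay between -0.32 and -0.08 without 1 library. Genes called higher and lower over the whole table numbered 882 and 599 without both libraries numbered 3, 966 and 573 with a term for them, and 279 and 41 with no variance trend. DESeq2 called 339 lower, and without 1 library 330 to 847 were called higher and 37 to 455 lower.

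Replicate numbers are shared between the groups, but deviations from the group means correlated at 0.0437, 0.0209 and 0.111 for numbers 1, 2 and 3, so the numbers were not taken to pair the libraries. Low correlations over all genes cannot exclude a pairing. Over the 40 genes, the distances of library 3 from libraries 1 and 2 correlated at 0.442 between IFNg and control. Each IFNg library correlated best with the control of its own number except IFNg 2, which did so with control 1 (0.0289). With a replicate block, limma called 12 of the 40 genes lower and 0 higher (915 higher and 549 lower overall), and edgeR 11 and 0 (884 and 531 overall). The cause of these changes was not tested.

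Of the single genes, 12 changed sign when 1 library was left out, none of them called: the log2 difference ranged from -0.066 to 0.11 for CDK1, -0.30 to 0.13 for CCNA2, -0.24 to 0.080 for AURKA, -0.012 to 0.032 for BUB3, -0.25 to 0.027 for TTK, -0.21 to 0.10 for AURKB, -0.16 to 0.22 for BIRC5, -0.21 to 0.13 for NDC80, -0.13 to 0.29 for KIF11, -0.26 to 0.15 for NUSAP1, -0.086 to 0.13 for ANLN and -0.27 to 0.084 for MKI67. With 3 libraries a group, the 95% interval of the difference excluded 0 for 9 of the 40 genes. These intervals are not adjusted for the number of genes. The 9 are those lower at an unadjusted limma p under 0.05, where 6.46% of all genes were lower and 8.81% higher. After adjustment 2 of them passed.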
